A study of Mus musculus with 6 samples.

Results

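The 35 Hox genes and 10 depot identity factors described here were taken by name from a table of 19928 mouse genes measured in adipose tissue. The Hox genes were all rows whose symbol is Hox, a cluster letter from a to d and a number, 11 of the Hoxa, 8 of the Hoxb, 9 of the Hoxc and 7 of the Hoxd cluster, and the depot factors were Tbx15, Shox2, En1, Nr2f1, Tbx5, Gata4, Gata6, Tcf21, Pitx1 and Irx3. RNA-seq was done on 6 libraries of KM mice, an outbred strain: 3 from mice given a diet with RAS (radix Angelica sinensis, a root of Chinese herbal medicine) at 10.00 g per kg body weight, and 3 from mice on the diet labelled control. The series title places the study in obesity induced by a high-fat diet and asks which genes stand behind an effect of the root. The sources used here do not give the fat depot, sex, age or number of animals behind a library, so a p-value measures only the spread between libraries, which may be technical. Depth was 14.4 to 15.8 M assigned reads a library. The first principal component of all tested genes set RAS 3 at 34.5 and control 1 at -24.4 as its ends, and values without these libraries are given beside several results.

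Hox genes encode homeodomain transcription factors that give cells an identity along the body axis, and their order along each cluster follows the order in which they are used from head to tail. Adult fat cells and their precursors keep the Hox code of the place where they arose, and so transcript levels of these genes differ between depots. In mice, Tbx15, Shox2 and En1 are known for higher levels in subcutaneous fat, and Tcf21, Nr2f1 and Hoxa5 for higher levels in visceral fat.

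Promoter sequence is shown for 3 of the members whose RAS and control libraries did not overlap, those with a RefSeq window at the gene start that the table gives, so that it can be read beside their values. Each window runs from 250 bases before to 50 bases after the transcription start (RefSeq, GRCm38.p6), on the gene's strand, and capitals mark CG dinucleotides, the sites of DNA methylation. Irx3 lies on the minus strand of chromosome 8 (chr8:91801605-91801904), Hoxb8 on the plus strand of chromosome 11 (chr11:96281655-96281954) and Hoxa10 on the minus strand of chromosome 6 (chr6:52240805-52241104).
Irx3: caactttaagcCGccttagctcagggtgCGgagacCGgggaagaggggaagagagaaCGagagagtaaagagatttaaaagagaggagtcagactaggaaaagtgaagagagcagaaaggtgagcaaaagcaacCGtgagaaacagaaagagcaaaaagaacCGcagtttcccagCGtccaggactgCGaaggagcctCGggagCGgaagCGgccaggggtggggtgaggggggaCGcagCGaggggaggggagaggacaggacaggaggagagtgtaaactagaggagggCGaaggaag
Hoxb8: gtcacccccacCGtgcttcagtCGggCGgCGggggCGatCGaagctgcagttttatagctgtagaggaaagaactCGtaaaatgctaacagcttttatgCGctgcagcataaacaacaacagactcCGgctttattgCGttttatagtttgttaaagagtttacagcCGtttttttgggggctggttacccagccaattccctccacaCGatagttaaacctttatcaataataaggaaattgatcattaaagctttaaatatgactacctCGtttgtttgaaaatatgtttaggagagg
Hoxa10: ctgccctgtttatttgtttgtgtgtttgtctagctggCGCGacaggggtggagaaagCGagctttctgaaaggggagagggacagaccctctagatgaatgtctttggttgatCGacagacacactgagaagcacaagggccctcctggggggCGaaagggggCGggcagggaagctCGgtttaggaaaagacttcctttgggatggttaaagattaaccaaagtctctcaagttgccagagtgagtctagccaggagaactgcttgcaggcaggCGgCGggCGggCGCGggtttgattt

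The printed windows of Irx3, Hoxb8 and Hoxa10 held 14, 13 and 12 CG dinucleotides. A second window of Hoxa10, at a start inside the gene (chr6:52234890-52235189), held 21 and is not printed. RefSeq windows were matched for 24 of the 45 members, 27 windows in all, with a median of 14 CG dinucleotides (4 to 45) against 7 over 32851 windows. The motif TGATNNAT, the shape of a joint Hox and Pbx site, was searched on both strands and found in 8.85% of all windows and in 3 member windows, those of Hoxa2, Hoxb8 and Hoxd11. In the Hoxb8 window it read TGATCAAT on the opposite strand at base 240, counted from 1 at the 5′ end. TATAAA, the core of the TATA box, stood in 13.6% of all windows and in 4 member windows, those of Hoxd4, Shox2, the second Hoxa10 start and Hoxb8. In the Hoxb8 window it lay on the opposite strand at bases 52 and 141. These are matches of letters and do not overlap each other.

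Transcript levels are given in FPKM, fragment numbers corrected for transcript length and for the size of the library, so that levels can be set side by side between genes. Of the 35 Hox genes, 27 had a mean of at least 1 FPKM over the 6 libraries. Hox transcripts were modest in level: Hoxc8, the Hox gene with the highest mean (11.4 FPKM), ranked 5374 among all genes of the table. Hoxb1, Hoxb13, Hoxd12 and Hoxd13 had no row under these names in the table and so were not analysed here. Levels did not fall evenly along the clusters: the genes with the highest means were Hoxc8, Hoxd8, Hoxc6, Hoxa10, Hoxc10 and Hoxd4, and levels dropped at the 5′ ends of the Hoxb, Hoxc and Hoxd clusters.

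**Figure D1:**
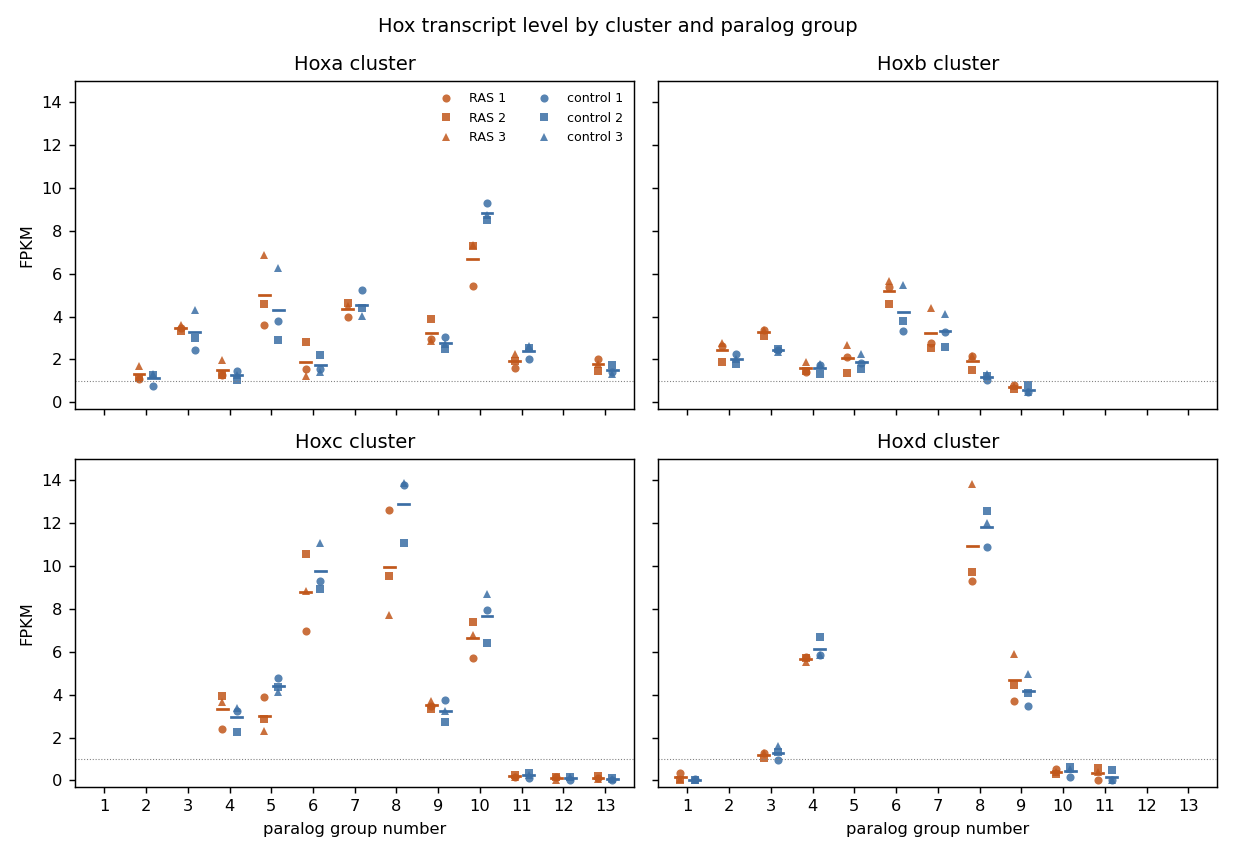
FPKM of the Hox genes named in the text (vertical axis) by paralog group number (horizontal axis) in 1 panel a cluster, with RAS libraries in orange left of control libraries in blue, a line at each group's mean and a dotted line at 1 FPKM. Hoxc8 and Hoxd8 stand highest with means of 11.4 FPKM over the 6 libraries, and Hoxc11, Hoxc12, Hoxc13, Hoxd10 and Hoxd11 lie under 1 FPKM in every library.

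In the Hoxc cluster the levels were highest. Hoxc8, which in mouse precursors restrains the brown fat programme, had 12.6, 9.52 and 7.72 FPKM in RAS libraries 1, 2 and 3 and 13.8, 11.1 and 13.9 FPKM in control libraries 1, 2 and 3. The groups overlapped, with RAS 2 and RAS 3 lowest of the 6 libraries. Hoxc6 had 6.99, 10.6 and 8.84 FPKM in the RAS libraries and 9.33, 8.92 and 11.1 FPKM in the controls. Hoxc10, known as a gene of subcutaneous fat that restrains browning, had 5.70, 7.41 and 6.76 FPKM in the RAS libraries and 7.94, 6.43 and 8.68 FPKM in the controls. For both genes the lowest library was RAS 1 and the highest control 3, with overlap between the groups. Hoxc4 and Hoxc9 averaged 3.16 and 3.37 FPKM over the 6 libraries. Past Hoxc10 the level dropped away: Hoxc11 had 0.113 to 0.345 FPKM on 1 to 3 reads a library, and Hoxc12 and Hoxc13 averaged 0.102 and 0.092 FPKM and were listed at 0 in some libraries.

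In the Hoxd cluster the level stood highest at Hoxd8 and dropped between Hoxd9 and Hoxd10. Hoxd8 had 9.31, 9.72 and 13.9 FPKM in the RAS libraries and 10.9, 12.6 and 11.99 FPKM in the controls, with RAS 1 lowest and RAS 3 highest. Its neighbour Hoxd9 had 3.72, 4.45 and 5.90 FPKM in the RAS libraries and 3.48, 4.07 and 4.97 FPKM in the controls, so Hoxd8 exceeded Hoxd9 by 2.18 to 3.13 times within each library. The next gene, Hoxd10, had only 0.152 to 0.618 FPKM, and Hoxd9 exceeded it by 6.59 to 23.0 times within each library, on as few as 5 Hoxd10 reads. Hoxd11 averaged 0.240 FPKM and was listed at 0 in RAS 1, control 1 and control 3. At the other end of the cluster, Hoxd1 had 0.365 FPKM in RAS 1 and at most 0.081 FPKM in each of the other libraries, and Hoxd3 averaged 1.25 FPKM. Hoxd4 had 5.78, 5.70 and 5.51 FPKM in the RAS libraries and 5.86, 6.68 and 5.87 FPKM in the controls. Its level was 3.65 to 6.21 times that of Hoxd3 in each library, but both stand on 1 locus of 3 genes in the table, so their reads may be mixed.

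Hoxa genes were present along the whole cluster, Hoxa13 included. Hoxa10, a posterior gene, led with a mean of 7.78 FPKM and exceeded its neighbour Hoxa11 by 3.26 to 4.57 times in each library. Hoxa5, known in mice for higher levels in visceral fat, had 3.60, 4.60 and 6.86 FPKM in the RAS libraries and 3.79, 2.92 and 6.26 FPKM in the controls. The library numbered 3 was the highest in each group, and the groups overlapped. Means over the 6 libraries were 4.47 FPKM for Hoxa7, 3.37 for Hoxa3, 3.00 for Hoxa9, 2.17 for Hoxa11, 1.80 for Hoxa6, 1.63 for Hoxa13, 1.38 for Hoxa4 and 1.21 for Hoxa2. Hoxa6 and Hoxa13 rested on only 7 to 16 and 11 to 16 reads a library, and Hoxa3, Hoxa4, Hoxa5 and Hoxa6 share 1 locus of 7 genes, so their split is uncertain.

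Hoxb genes stayed lower, and none averaged 5 FPKM. Hoxb6 was highest of the cluster, with 5.37, 4.61 and 5.66 FPKM in the RAS libraries and 3.33, 3.78 and 5.50 FPKM in the controls. Control 3 lay among the RAS values, and controls 1 and 2 were under all of them. Means were 3.28 FPKM for Hoxb7, 2.85 for Hoxb3, 2.23 for Hoxb2, 1.97 for Hoxb5, 1.61 for Hoxb4, 1.56 for Hoxb8 and 0.656 for Hoxb9. The step from Hoxb8 down to Hoxb9 was 1.56 to 2.84 times in each library.

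Ordered by mean over the 6 libraries, Hoxc8 and Hoxd8 led, then came Hoxc6 (9.28 FPKM), Hoxa10, Hoxc10, Hoxd4 (5.90 FPKM), Hoxb6 (4.71 FPKM) and Hoxa5 (4.67 FPKM). Neighbours in this order had overlapping library ranges and cannot be ranked beyond their spread. The order held in part on read numbers, where Hoxc8 ranked 1 and Hoxd8 ranked 5 of the 35 Hox genes, since Hoxc8 gave 51.1 reads per FPKM and Hoxd8 20.9.

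Among the depot factors, those tied to visceral fat in mice (Tcf21, Nr2f1) lay above 1 FPKM in every library, and of those tied to subcutaneous fat Tbx15 and En1 were near 0, while Shox2 passed 1 FPKM in 1 library. Gata6, a zinc finger factor of visceral mesoderm and mesothelium, had 6.98, 7.74 and 7.77 FPKM in the RAS libraries and 6.31, 8.004 and 10.8 FPKM in the controls. Tcf21, a bHLH factor of visceral fat precursors, had 7.59, 6.50 and 6.85 FPKM in the RAS libraries and 6.40, 7.53 and 11.1 FPKM in the controls. For both factors control 1 was the lowest and control 3 the highest library, and the RAS libraries lay between them. Because the tissue was measured in bulk, fewer cells of a type and less RNA per cell cannot be told apart. Nr2f1, a nuclear receptor, had 2.30, 2.96 and 2.92 FPKM in the RAS libraries and 3.48, 2.13 and 2.92 FPKM in the controls.

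The depot factors known from subcutaneous fat (Tbx15, En1 and Shox2) were lower, each with a mean under 1 FPKM. The Hox genes named here for a depot stood in the other order. Hoxc10, known from subcutaneous fat, averaged 7.15 FPKM, and Hoxa5, known from visceral fat and on a shared locus, 4.67 FPKM. Other Hox genes were not compared by depot. Tbx15 had 0.0605, 0.0151 and 0.0148 FPKM in the RAS libraries, on 4, 1 and 1 reads, and was listed at 0 in the 3 controls, so no fold is given. En1 had at most 0.056 FPKM and was listed at 0 in RAS 1 and RAS 2. Shox2 had 0.228, 0.280 and 0.768 FPKM in the RAS libraries and 0.152, 0.328 and 1.16 FPKM in the controls, with library 3 highest in each group, on 13 reads in RAS 3 and 20 in control 3. The limb and heart factors were also low: Pitx1, a hindlimb factor, averaged 0.349 FPKM and Gata4 0.118 FPKM. Tbx5, a factor of the forelimb and heart, had 0.406, 0.183 and 0.256 FPKM in the RAS libraries against 0.684, 0.109 and 0.041 FPKM in the controls, where 1 library of 3 stood far above the others.

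**Figure D2:**
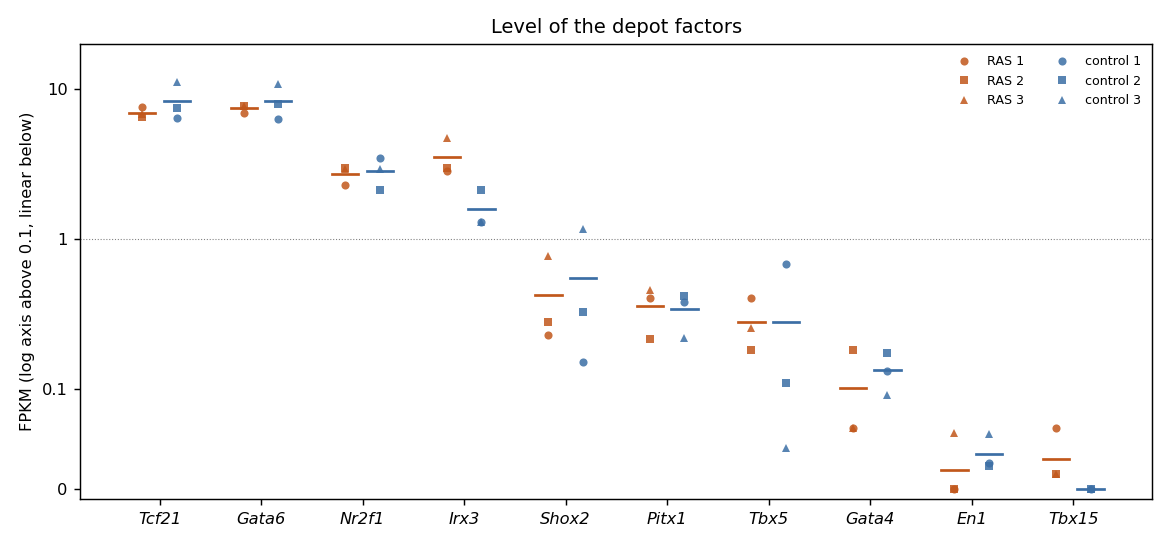
FPKM of the 10 depot factors (vertical axis, logarithmic above 0.1 and linear under it) by gene, with RAS libraries in orange left of control libraries in blue, a line at each group's mean and a dotted line at 1 FPKM. Tcf21, Gata6, Nr2f1 and Irx3 lie above 1 FPKM in every library, and Tbx15 is listed at 0 in the 3 control libraries.

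Markers of other tissues moved beside some of these levels. The summed level of 12 mesothelial markers was 126, 192 and 202 FPKM in the RAS libraries and 37.4, 239.6 and 307.8 FPKM in the controls, lowest in control 1 and highest in control 3 as for Gata6 and Tcf21. Wt1, a factor of mesothelium and visceral fat precursors that stands in that list, had 5.05, 8.38 and 6.85 FPKM in the RAS libraries and 3.73, 11.3 and 17.1 FPKM in the controls. The part of these cells in the Gata6 and Tcf21 levels was not tested. Mature adipocyte markers summed to 39640 to 56369 FPKM in the RAS libraries and 29021 to 37514 FPKM in the controls, so all libraries carried the transcripts of fat. Most of this sum was Fabp4, the fatty acid binding protein of fat cells. The other 9 markers summed to 9477 to 10783 FPKM in the RAS libraries and 8200 to 11067 FPKM in the controls, which overlapped. Skeletal muscle markers summed to 23.2 to 61.7 FPKM in the RAS libraries and 70.4 to 209.0 FPKM in the controls, most of it Acta1, the skeletal muscle actin. Without Acta1 the other 10 markers summed to 1.99 to 2.41 FPKM in the RAS libraries and 1.91 to 29.0 FPKM in the controls, which overlapped, with control 1 alone high. Liver markers summed to 12.6 to 16.2 FPKM in the RAS libraries and to 29.0, 9.91 and 181.7 FPKM in controls 1, 2 and 3. Control 3 thus stood far above all other libraries. The kidney and adrenal list stayed under 1 FPKM in all 6 libraries. No listed marker that the table holds was at 0 in all 6 libraries.

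Between RAS and control, no Hox gene or depot factor passed the test. Differences were tested with limma on log2(FPKM + 1), a scale on which changes of low genes come out smaller than they are, in 12606 genes with a mean of at least 1 FPKM, among them 27 Hox genes and 4 depot factors. The 14 members under this minimum (among them Hoxb9, Hoxc11, Hoxc12, Hoxc13, Hoxd1, Hoxd10, Hoxd11, En1, Gata4, Pitx1, Shox2, Tbx15 and Tbx5) were not tested. At a Benjamini-Hochberg adjusted p under 0.05, limma called 0 of the 31 tested members, against 0.0% of all genes. At an unadjusted p under 0.05, 5 members (16.1%) were called, against 10.3% of all genes. With higher means in the RAS libraries these were Irx3, Hoxb3 and Hoxb8 (9.68%, against 3.86% of all genes), and with lower means Hoxa10 and Hoxc5 (6.45%, against 6.41% of all genes). RAS and control libraries were fully separated for 6 tested members (19.4%), these 5 and Hoxd4, against 17.9% of all genes, a share near the background. RAS lay above control for 3 of them (9.68%, against 5.42%) and under it for 3 (9.68%, against 12.5%).

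Irx3, a homeodomain factor of the Iroquois family studied in fat for its link to the Fto obesity region and to thermogenesis, had the largest log2 difference of the members. It had 2.84, 2.96 and 4.72 FPKM in RAS libraries 1, 2 and 3 and 1.29, 2.13 and 1.30 FPKM in control libraries 1, 2 and 3. All RAS libraries lay above all controls, with RAS 3 standing apart at the top. The means were 3.50 ± 1.05 FPKM with RAS and 1.57 ± 0.48 FPKM in control (SD, n = 3 each). The log2 difference of 0.80 ± 0.21 (SE) did not pass (limma, unadjusted p = 0.00576, Benjamini-Hochberg adjusted p = 0.315). The gene stood 230th among all tested genes by p. RAS 3 also held the highest sum of brown and beige fat markers: these were 144, 209 and 974 FPKM in the RAS libraries and 317.7, 120.3 and 56.0 FPKM in the controls. Without RAS 3 the log2 difference of Irx3 was 0.61, and without RAS 3 and control 1 it was 0.54. The gene body (chr8:91798511-91801654 in the table's coordinates) overlaps the antisense gene Irx3os in GENCODE, and since no strand-specific step is named, reads of both cannot be told apart.

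Hoxb3 and Hoxb8 were the Hox genes with higher RAS values in every library. Hoxb3, an anterior gene of the cluster, had 3.36, 3.11 and 3.38 FPKM in the RAS libraries and 2.46, 2.47 and 2.34 FPKM in the controls. The values were tight within each group, with means of 3.28 ± 0.15 FPKM with RAS and 2.42 ± 0.08 FPKM in control (SD, n = 3 each). Its log2 difference was 0.32 ± 0.11 (SE; limma, unadjusted p = 0.0175, Benjamini-Hochberg adjusted p = 0.390). Hoxb3 (chr11:96323126-96347930) overlaps the antisense genes Gm11536 and Hoxb3os. Hoxb8, a gene of the middle of the cluster known from blood cells and the nervous system, had 2.15, 1.51 and 2.16 FPKM in the RAS libraries and 1.02, 1.23 and 1.30 FPKM in the controls. RAS 2 lay closest to the controls. Its log2 difference was 0.42 ± 0.15 (SE; limma, adjusted p = 0.425), on 56 to 78 reads in the RAS libraries and 39 to 53 in the controls (chr11:96281905-96285325).

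Hoxa10 and Hoxc5 stood the other way round, with lower RAS values. Hoxa10 (chr6:52231197-52240854) had 5.43, 7.32 and 7.36 FPKM in the RAS libraries and 9.31, 8.50 and 8.76 FPKM in the controls. All RAS libraries lay under all controls, and RAS 1 was the lowest. The means were 6.70 ± 1.10 FPKM with RAS and 8.86 ± 0.41 FPKM in control (SD, n = 3 each). The log2 difference was -0.37 ± 0.13 (SE; adjusted p = 0.425 by limma), and -0.24 without RAS 1. Hoxc5 (chr15:103014008-103017429) had 3.88, 2.86 and 2.31 FPKM in the RAS libraries and 4.76, 4.35 and 4.13 FPKM in the controls. RAS 1 lay just under the lowest control. The log2 difference was -0.45 ± 0.16 (SE; limma, adjusted p = 0.425), and -0.27 without RAS 3 and control 1. Hoxc8, next to them in p (chr15:102990539-102994254), averaged 9.96 ± 2.48 FPKM with RAS and 12.9 ± 1.58 FPKM in control (SD, n = 3 each). Its log2 difference was -0.36 ± 0.18 (SE; adjusted p = 0.540 by limma), and -0.16 without RAS 3 and control 1. Hoxd4 was separated by a small gap, 5.78 FPKM in the highest RAS library and 5.86 FPKM in the lowest control, and differed by -0.10 ± 0.10 on the log2 scale (SE; adjusted p = 0.754 by limma). After division by median-ratio size factors its groups overlapped, whereas the other 5 genes stayed apart.

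**Figure D3:**
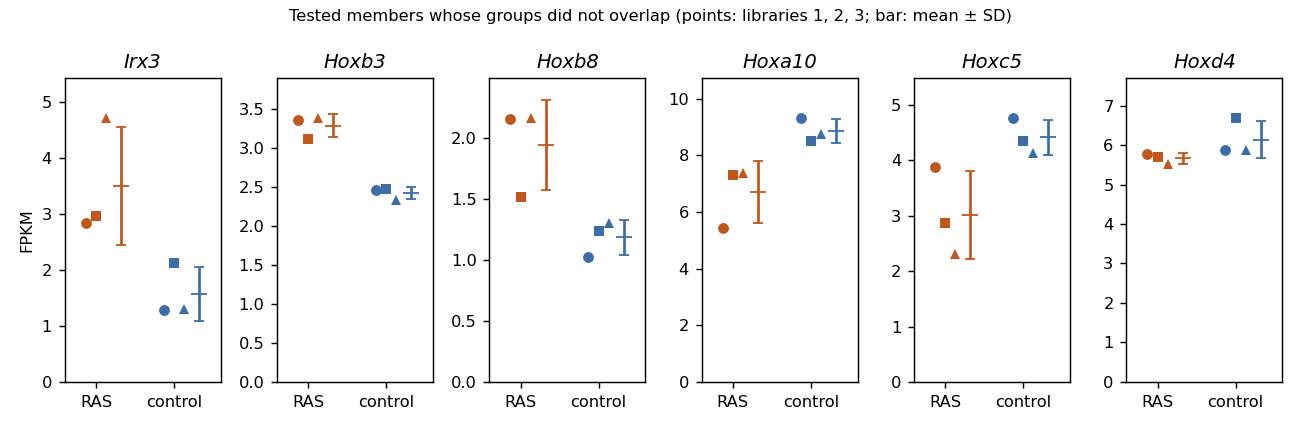
FPKM (vertical axis from 0, own scale in each panel) of the 6 tested members whose groups did not overlap, RAS in orange left of control in blue, with circles, squares and triangles for libraries 1, 2 and 3 and a bar for the mean ± SD. In Irx3 the library RAS 3 stands apart at 4.72 FPKM, and in Hoxd4 the groups nearly touch, with 5.78 FPKM in the highest RAS library and 5.86 FPKM in the lowest control.

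The other 24 tested members had log2 differences from -0.22 (Hoxa11) to 0.27 (Hoxb6), with adjusted p values of 0.616 or more in limma. Some of these moved with single libraries: Hoxb6 was at 0.45 without control 3 and at 0.15 without control 1. Without RAS 3 and control 1, Hoxd8 was at -0.34, against -0.12 in all libraries, and Hoxa11 at -0.38 (limma, adjusted p = 0.280 and 0.343). The visceral factors Tcf21 and Gata6 had log2 differences of -0.20 ± 0.19 and -0.11 ± 0.18 (SE; limma, adjusted p = 0.733 and 0.849). That of Nr2f1 was -0.03 ± 0.16 (SE; limma, adjusted p = 0.960), and its sign turned under median-ratio scaling (0.001) and quantile normalization (0.024). A p above the threshold does not show that these genes were alike in the groups.

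**Figure D4:**
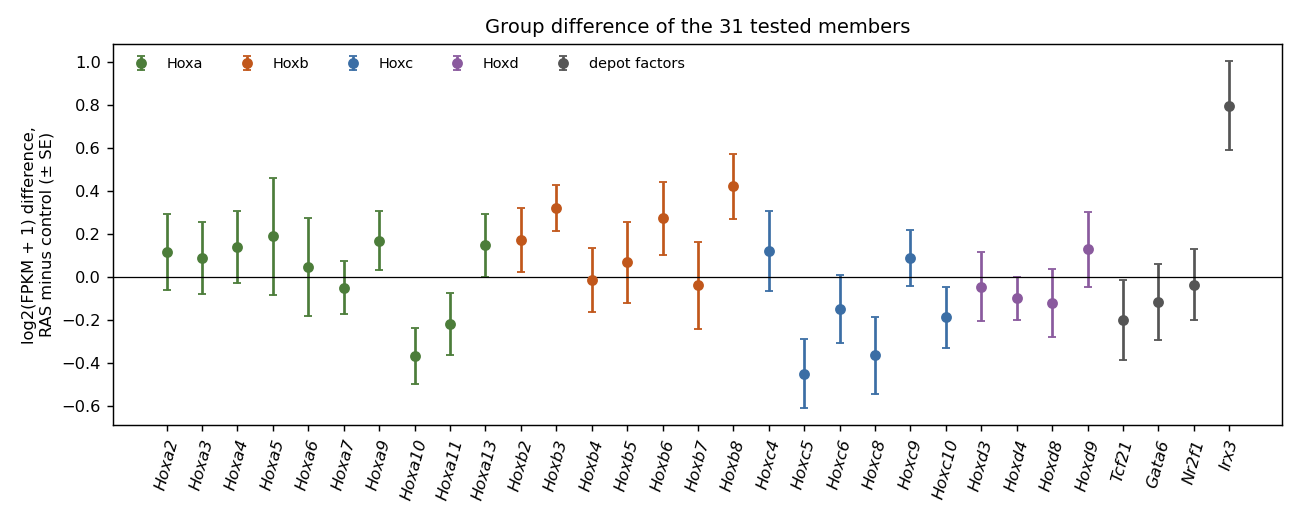
Log2 difference of RAS minus control on the log2(FPKM + 1) scale (vertical axis, bars: SE of limma's fit, n = 3 each) for the 31 tested members, by cluster and then the depot factors (horizontal axis). Irx3 stands highest at 0.80 and Hoxc5 lowest at -0.45, and the 24 members other than Hoxc8 with overlapping groups lie between -0.22 and 0.27.

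Counted by direction, 16 of 31 tested members (51.6%) had a higher log2 mean with RAS, against 43.0% of all tested genes, and the median log2 difference was 0.05 against -0.04 over all genes. By cluster, 5 of 7 Hoxb genes (median 0.17), 7 of 10 Hoxa genes (median 0.10), 2 of 6 Hoxc genes (median -0.17) and 1 of 4 Hoxd genes (median -0.07) had higher values with RAS. By position, this held for 6 of 9 genes of paralog groups 1 to 4, 5 of 11 of groups 5 to 8 and 4 of 7 of groups 9 to 13, with medians of 0.12, -0.04 and 0.09. The members' median depended on the libraries: without RAS 3 it was -0.07. It also depended on level: at a minimum mean of 5 FPKM, 0 of 8 members were higher with RAS (median -0.166). RAS 3 was the highest of the 6 libraries for 12 of 27 tested Hox genes. The lowest was control 2 for 7, and RAS 1 and control 1 for 6 each. The same was not counted over all genes.

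The make-up of the Hox signal was then read as the share of each cluster in the summed FPKM of the 35 Hox genes. This sum was 105, 110.5 and 119 FPKM in RAS libraries 1, 2 and 3 and 113, 108 and 124 FPKM in the controls, and the groups overlapped. The Hoxb share was 19.7, 15.5 and 19.9% in the RAS libraries and 14.6, 14.3 and 15.9% in the controls. The Hoxc share was 33.8, 34.6 and 27.9% in the RAS libraries and 38.1, 33.5 and 36.1% in the controls. Both shares overlapped between groups, but their ratio did not: summed Hoxc over summed Hoxb was 1.72, 2.23 and 1.40 in the RAS libraries and 2.61, 2.34 and 2.27 in the controls. Paralog groups 1 to 4 made up 22.8, 21.6 and 22.3% of the Hox sum in the RAS libraries and 19.6, 20.2 and 19.8% in the controls, without overlap. The summed FPKM of groups 1 to 4 did overlap, as did that of their Hoxb genes. For groups 1 to 4 it was 23.97, 23.83 and 26.58 FPKM in the RAS libraries and 22.05, 21.91 and 24.67 FPKM in the controls. Within these groups the Hoxb share was apart, 7.03, 5.86 and 6.77% in the RAS libraries and 5.75, 5.14 and 4.93% in the controls. Those of the other clusters overlapped. Hoxa genes made up 6.37 ± 0.35% with RAS and 5.52 ± 0.64% in control. Hoxc4 made up 2.98 ± 0.64% with RAS and 2.57 ± 0.42% in control. The Hoxd genes made up 6.33 ± 0.67% with RAS and 6.51 ± 0.74% in control. Means of the whole band were 22.2 ± 0.63% with RAS and 19.9 ± 0.31% in control (SD, n = 3 each). Shares of the single paralog groups 3, 9 and 10 were also apart. Group 3 held 6.78 to 7.74% in the RAS libraries and 5.2 to 6.65% in the controls. Group 9 held 10.45 to 11.12% in the RAS libraries and 9.20 to 9.58% in the controls. Group 10 went the other way, with 11.09 to 13.59% in the RAS libraries and 14.34 to 15.45% in the controls. The Hoxc genes of groups 5 to 8 also lay lower, with 15.83 to 22.38% in the RAS libraries and 22.45 to 24.74% in the controls. As summed FPKM, groups 3 and 9 overlapped, while group 10 and these Hoxc genes stayed apart. These sums and ratios were chosen after the values were seen and carry no test. Shares were read for each cluster, each band of paralog groups, each cluster within a band and each single paralog group. Those not given as apart overlapped. Of single genes, 17.9% of all tested had their groups apart. Several of the shares hold genes already given as apart: Hoxb3 in groups 1 to 4 and 3, Hoxa10 in group 10 and Hoxc5 in the Hoxc genes of groups 5 to 8. Hoxa and Hoxd shares averaged 28.7 ± 1.83% and 20.9 ± 1.81% with RAS, against 28.2 ± 0.29% and 20.9 ± 2.46% in control.

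**Figure D5:**
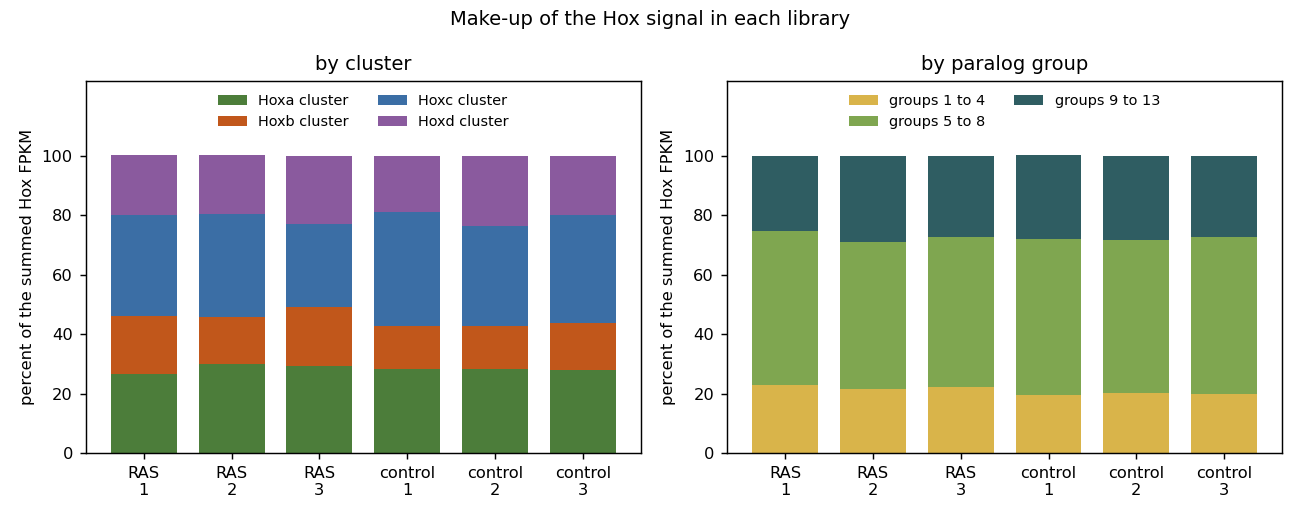
Percent of the summed FPKM of the 35 Hox genes (vertical axis) in each library (horizontal axis, RAS left of control), split by cluster on the left and by paralog group on the right. Groups 1 to 4 take 21.6 to 22.8% in the RAS libraries and 19.6 to 20.2% in the controls, while the cluster shares overlap. The summed FPKM of groups 1 to 4 overlaps.

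Hox proteins bind DNA with TALE partners of the Pbx, Meis and Pknox families. Of 8 tested partner genes 0 passed limma's adjusted threshold, and 2 had an unadjusted p under 0.05, against 10.3% of all genes. Values with RAS were higher for 3 and lower for 5, against 43.0% of all genes higher. The median log2 difference was -0.10. Pknox2 had 1.22, 1.31 and 0.957 FPKM in the RAS libraries and 1.83, 1.78 and 1.79 FPKM in the controls (log2 -0.38, limma adjusted p = 0.425). All RAS libraries lay under all controls. Pknox1 and Meis3 had log2 differences of -0.18 and 0.22, and their groups overlapped.

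Polycomb proteins keep Hox genes silent outside their domain, and trithorax proteins keep them active. Of 22 tested regulators of these families 0 passed limma's adjusted threshold, and 3 had an unadjusted p under 0.05, against 10.3% of all genes. Values with RAS were higher for 12 and lower for 10, against 43.0% of all genes higher. The median log2 difference was 0.03. Cbx7, a Polycomb reader of methylated histone H3, had 9.75, 11.02 and 8.90 FPKM in the RAS libraries and 5.09, 8.08 and 7.63 FPKM in the controls (log2 0.47, limma adjusted p = 0.425). The ubiquitin ligase Rnf2 had a log2 difference of 0.27, and Wdr5, a shared subunit of the trithorax methyltransferases, one of -0.24 (limma, adjusted p of 0.475 to 0.532). For Cbx7 all RAS libraries lay above all controls, for Wdr5 all lay under them, and for Rnf2 the groups overlapped.

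Retinoic acid opens Hox clusters through its receptors during development. Of 7 tested receptors and enzymes 0 passed limma's adjusted threshold, and 1 had an unadjusted p under 0.05, against 10.3% of all genes. Values with RAS were higher for 4 and lower for 3, against 43.0% of all genes higher. The median log2 difference was 0.13. The receptor Rara had 5.05, 4.17 and 4.51 FPKM in the RAS libraries and 5.53, 6.34 and 6.09 FPKM in the controls (log2 -0.33, limma adjusted p = 0.405). The receptor Rarg stood in the opposite order, 14.64, 16.5 and 19.9 FPKM in the RAS libraries and 11.8, 13.5 and 14.64 FPKM in the controls (log2 0.33, limma adjusted p = 0.493), with RAS 1 and control 3 nearly equal. Rarb and the retinal dehydrogenase Aldh1a1 had log2 differences of 0.25 and -0.34, and their groups overlapped.

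Of 14 other tested patterning factors of fat depots 0 passed the adjusted threshold in limma. An unadjusted p under 0.05 was found for 1, against 10.3% of all genes. Values with RAS were higher for 7 and lower for 7, against 43.0% of all genes higher. The median log2 difference was -0.02. Prrx1, a homeodomain factor of mesenchymal precursors, had 11.8, 13.5 and 10.96 FPKM in the RAS libraries and 16.2, 15.9 and 17.2 FPKM in the controls, all RAS libraries under all controls (log2 -0.42, limma adjusted p = 0.315). The summed level of 12 preadipocyte and fibroblast markers was 1490, 2155 and 1538 FPKM in the RAS libraries and 1773, 1805 and 2400 FPKM in the controls, with overlap, and its part in the Prrx1 level was not tested. Prrx2 had a log2 difference of -0.54, Tcf15, a factor of the vessels of fat, one of 0.33, and Meox2 one of 0.17, each with overlapping groups. Among other transcripts of the Hox clusters, 2 were tested, Mira (log2 0.09) and Hoxa11as (log2 -0.07), and Hoxa11as stands on 1 locus with Hoxa11.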

How the data were processed

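RNA-seq of adipose tissue was measured in 3 RAS and 3 control libraries. The authors deposited FPKM values, which were analysed without change. Per the submitters' processing notes, TopHat2 2.0.9 and Cufflinks 2.1.1 were used. The sources used here do not give build or annotation. Of 18412 genes matched by Ensembl identifier, 99.62% had a locus overlapping their GENCODE M21 gene (GRCm38), every matched member included. The deposited table also holds a scaled count signal per library, used for depth and read numbers after division by its step. The values were not all whole reads, so no count model was run.

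Columns named for the group that the treatment protocol ties to RAS were taken as RAS libraries, the other numbered set as control by elimination, with numbers as in the titles. 4 further columns of values were not used. Tests covered genes whose mean FPKM was 1 or more and used limma (lmFit, trended eBayes) on log2(FPKM + 1), RAS minus control, two-sided, with Benjamini-Hochberg adjustment over 12606 genes and a threshold of 0.05. The rows of the members come from this fit. On simulated data with 12606 genes the test found 63.8% of genes changed by log2 1 and 93.4% of those changed by log2 2, and made 6.2 false calls a run. These changes were added on the log2(FPKM + 1) scale with independent normal noise. The same change in FPKM of a low gene is smaller on that scale, so these shares do not apply to it.

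The members and lists were chosen with earlier results of these data known. Members are named, and of each pathway list up to 4 tested genes by unadjusted p, except a few genes that are counted but not reported here by name. Alternatives were another pseudocount, other minimums, median-ratio and quantile scaling, the replicate number as a block, libraries left out, and, chosen after seeing the data, the scaled counts. Of the members, 9 share a locus with another gene, and 21 overlap an antisense GENCODE gene. Software was limma 3.58.1 in R 4.3.3, and pandas 2.3.3, numpy 2.4.6 and matplotlib 3.10.9 in Python 3.11.15.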

Additional observations from a re-analysis of the deposited data

How the results depend on the processing

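No member passed limma's adjusted threshold under any of 14 alternatives, and 1 to 5 had an unadjusted p under 0.05. The scaled counts were chosen after seeing the data. The planned count test on recovered reads was not run. Over all genes the count past the threshold was 0 (1294 at an unadjusted p under 0.05), 0 to 2 with 1 library left out, and 3 with RAS 3 and control 1 left out together. The members' median log2 difference of 0.049 was -0.072 without both these libraries, -0.166 with a minimum mean of 5 FPKM (8 members) and -0.068 to 0.094 with 1 library left out. Of tested members 16 had a higher mean with RAS, 0 of 8 at a minimum of 5 FPKM, 25 of 45 with no minimum, 13 of 31 without RAS 3 and control 1, and 12 to 20 with 1 library left out. The cause was not tested. The share of all genes with a higher mean was not counted in these alternatives.

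Irx3, Hoxb3, Hoxb8, Hoxa10, Hoxc5 and Hoxd4 kept their direction in every alternative in which they were tested. Of 31 tested members, 15 changed sign in at least 1 alternative. Without RAS 3 and control 1 the log2 difference was -0.118 for Hoxa2, -0.07 for Hoxa3, -0.072 for Hoxa5, 0.02 for Hoxa7, -0.074 for Hoxb5, -0.116 for Hoxd9 and 0.045 for Nr2f1. With median-ratio size factors it was 0.016 for Hoxb4 and 0.001 for Nr2f1, with quantile normalization 0.012 for Hoxa7, 0.017 for Hoxb4, 0.02 for Hoxb7 and 0.024 for Nr2f1, and with the scaled counts 0.01 for Hoxb4. With 1 library left out, the range was -0.279 to 0.066 for Gata6, -0.003 to 0.187 for Hoxa2, -0.05 to 0.263 for Hoxa3, -0.02 to 0.439 for Hoxa5, -0.173 to 0.212 for Hoxa6, -0.12 to 0.04 for Hoxa7, -0.1 to 0.04 for Hoxb4, -0.071 to 0.238 for Hoxb5, -0.222 to 0.094 for Hoxb7, -0.011 to 0.288 for Hoxc4, -0.002 to 0.178 for Hoxc9, -0.155 to 0.057 for Hoxd3, -0.018 to 0.256 for Hoxd9, -0.173 to 0.084 for Nr2f1 and -0.353 to 0.004 for Tcf21.

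Libraries of the same number deviated together at r of 0.178, 0.096 and 0.219, not all over 0.1, so the numbers were not taken as pairs, although each RAS library correlated best with its own number. With the replicate number as a block, 0 genes passed (1663 at an unadjusted p under 0.05), 0 members passed (5 unadjusted), and the median stayed at 0.049 with 16 members higher. Depth limits 14 members, which had under 20 reads in their lowest library.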
